A study of Homo sapiens with 22 samples.

Results

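The insulin-like growth factor (IGF) axis was examined in RPTEC, a line of human renal proximal tubule epithelial cells immortalized with hTERT, through 9 genes chosen by name: the ligand IGF2, the receptors IGF1R and IGF2R, and the binding proteins IGFBP2 to IGFBP7. Of these 9, 8 were among the 36859 genes of the deposited RNA-seq table, and all 8 were among the 14585 genes with enough counts to be tested. IGFBP4 was not analysed here. The 22 libraries fell into 11 groups of 2 replicates. In media with 2% serum these were untreated WT cells, WT cells given 10 ng/ml TGF-β for 72 h after serum reduction, the SETD2 knockout clones KO1 and KO2, and a line labelled KO2 rescue. Cells kept in 10% serum were the SETD2-re-expressing clones Rescue1 and Rescue2, kept under blasticidin, and WT cells transduced with lentivirus carrying eGFP (empty vector), OCT2, PRRX1 or SOX2. All groups carry hTERT under G418 selection, and each knockout or rescue group is 1 clone or line. Wherever Rescue1 and Rescue2 are compared with KO clones or untransduced WT, SETD2 re-expression, serum, transduction and blasticidin differ together. These cannot be told apart. Per the paper, the transduced WT cells were selected in bulk with puromycin, while the rescue clones were single colonies. Where the rescue clones are compared with eGFP-transduced WT, KO origin, SETD2 re-expression, single-colony origin and selection drug differ together, and these cannot be told apart either. KO2 was taken as the parent of Rescue1 and Rescue2 from a clone name in the study's supplementary summary, which the sample labels do not state. For IGF2, IGF2R, IGFBP3 and IGFBP7, the changes of the rescue clones are therefore also given against the mean of KO1 and KO2. Rescue changes of pathway genes are given against KO2 or eGFP alone. Nothing says that replicates came from separate cultures, so p-values measure only the spread between these libraries, which may be technical.

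IGF2 is a secreted growth factor that is imprinted in most tissues, abundant before birth and kept low in most adult epithelia. It signals through IGF1R and through the insulin receptor, which activate the PI3K-AKT and MAPK cascades. IGF2R, also called the cation-independent mannose-6-phosphate receptor, takes IGF2 up for breakdown in lysosomes and sorts lysosomal enzymes. The IGF binding proteins hold IGFs in the medium and the matrix, and proteases that cut them release the ligand. IGFBP7 binds IGFs weakly and is often grouped with the family as a related protein.

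SETD2, the gene targeted in the knockout clones, encodes the enzyme that trimethylates lysine 36 of histone H3. Its mRNA was at 1852 and 2061 normalized counts in WT, 1046 and 1130 in KO1, and 1050 and 1052 in KO2, below WT in each clone (log2 changes −0.84 and −0.89, under the 2-fold threshold). It was at 10240 and 10369 in Rescue1 and at 10445 and 9764 in Rescue2. The line labelled KO2 rescue had 835 and 820, below KO2 (log2 change −0.35, limma adjusted p = 0.00382), which goes against its label. The libraries are therefore written as labelled KO2 rescue. Transduced WT cells had 2702 to 3128, above the untransduced WT libraries (eGFP against WT, log2 change 0.64, adjusted p = 7.65e-06). The WT replicates stood apart from each other: summed fibroblast markers (8 genes) were at 12452 and 846. Across all libraries that sum ran from 830 to 236651, with DCN at up to 234809 and COL1A1 at up to 46598. The other listed genes reached at most 2936 (THY1), 768 (LUM), 231 (PDGFRA), 63.5 (PDGFRB), 28.1 (COL1A2) and 22.8 (COL3A1). In such bulk samples, fewer cells of a type and less RNA per cell cannot be told apart. The 15 renal epithelial markers summed to 19501 to 47951, with KRT8 at up to 25190, KRT19 at up to 18369 and PAX8 at up to 6561. CDH1 was at most 58.0, and the proximal tubule genes LRP2 and SLC34A1 were at most 2.29 and 8.47. The sum was lowest in KO1, at 20673 and 19501, against 40306 and 44327 in WT, and highest in Rescue1, at 46714 and 47951. Endothelial (4 genes) and leukocyte (3 genes) markers summed to at most 154.5 and 368, with CD3E at 0 in every library. Each library rested on roughly 7800000 to 18600000 reads.

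Promoter sequences are shown for IGF2R, IGFBP3 and IGFBP5, members that differed with SETD2 loss or with TGF-β treatment. Each is the 250 bases before the RefSeq start on GRCh38.p14, read 5′ to 3′ on the strand of the gene, with CpG dinucleotides in capitals. The places are chr6:159968832-159969081 (plus strand) for IGF2R, chr7:45921273-45921522 (minus strand) for IGFBP3 and chr2:216695550-216695799 (minus strand) for IGFBP5. None overlaps an annotated exon of its own gene, the IGFBP3 window lies within the span of a longer annotated transcript, and the IGFBP5 window overlaps an exon of DIRC3-AS1, a noncoding RNA on the other strand.
IGF2R: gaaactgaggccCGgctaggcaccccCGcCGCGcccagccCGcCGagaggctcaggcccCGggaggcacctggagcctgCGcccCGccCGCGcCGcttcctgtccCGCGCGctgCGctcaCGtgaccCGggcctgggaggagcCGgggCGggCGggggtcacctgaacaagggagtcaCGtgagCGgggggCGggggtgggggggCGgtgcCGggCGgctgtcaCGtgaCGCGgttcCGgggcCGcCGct
IGFBP3: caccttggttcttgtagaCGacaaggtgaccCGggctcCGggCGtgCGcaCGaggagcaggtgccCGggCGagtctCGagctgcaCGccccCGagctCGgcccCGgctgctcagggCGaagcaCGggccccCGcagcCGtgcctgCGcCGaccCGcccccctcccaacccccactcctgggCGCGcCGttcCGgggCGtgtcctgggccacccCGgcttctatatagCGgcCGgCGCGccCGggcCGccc
IGFBP5: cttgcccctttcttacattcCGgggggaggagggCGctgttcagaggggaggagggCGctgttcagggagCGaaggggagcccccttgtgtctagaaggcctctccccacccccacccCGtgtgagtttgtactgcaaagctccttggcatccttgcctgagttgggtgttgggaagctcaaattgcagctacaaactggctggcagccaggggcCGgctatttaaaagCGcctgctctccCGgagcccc
The IGF2R and IGFBP3 sequences held 33 and 32 CpG dinucleotides and the IGFBP5 sequence 8, where the median over 35116 RefSeq promoters of the same length was 11. The letters TATA, which read the same on both strands, lay between 45 and 16 bases before the start of IGFBP3, as in 6.7% of all promoters, and were not in that window of IGF2R or IGFBP5. The SMAD-binding letters CAGAC were searched on both strands (GTCTG on the other) and were in none of the 3 sequences, against 38.0% of all promoters.

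IGF2 (ENSG00000167244, chr11:2129112-2158391, minus strand) was near 0 in untransduced WT cells and high in both SETD2 KO clones. WT libraries had 0 and 0.799 normalized counts, about 1 read in all as estimated from the step between low values. TGF-β-treated libraries had 2.58 and 0, about 3 reads in all by the same estimate. The overlapping read-through gene INS-IGF2 was at 0 in every library. KO1 had 4819 and 6332, and KO2 had 2809 and 2597. No KO library overlapped any WT or TGF-β library. The ratio of KO1 to WT was 13964 with a 95% counting interval of 2259 to 497113, and that of KO2 to WT was 6769 (1095 to 240979). These intervals are Poisson limits on the estimated WT reads, rounded to whole reads. They cover counting error only and not the error of that estimate. Against TGF-β-treated cells the ratios were 4329 (1172 to 16613) for KO1 and 2099 (568 to 8053) for KO2. On the log2(normalized count + 1) scale KO1 exceeded WT by 12.01 (SE 0.40, limma adjusted p = 6.86e-12) and KO2 exceeded WT by 10.98 (SE 0.40, adjusted p = 3.8e-11), and these fitted values depend on the added count of 1. TGF-β gave a log2 change from WT of 0.50 (adjusted p = 0.489), with overlapping libraries. KO1 lay above KO2 without overlap, yet the difference of 1.03 did not pass (adjusted p = 0.0998).

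High IGF2 was also present in WT cells after transduction. The eGFP libraries had 4508 and 4291 normalized counts, OCT2 4458 and 4808, PRRX1 4374 and 4075, and SOX2 5810 and 5898. All 8 were above KO2, and SOX2 overlapped KO1. The ratio of eGFP-transduced to untransduced WT was 11017 (1782 to 392181), with a log2 change of 11.68 (SE 0.40, adjusted p = 4.9e-11). Serum, transduction and selection differ together between these groups and cannot be told apart. The ectopic factors did not move IGF2 past the test relative to eGFP: the log2 changes were 0.41 for SOX2 (adjusted p = 0.954), 0.07 for OCT2 and −0.06 for PRRX1 (adjusted p = 1 for both).

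The lines derived from SETD2 KO cells had less IGF2 than KO2, by very different amounts. Rescue1 had 308 and 241 normalized counts, Rescue2 had 2054 and 2189, and the line labelled KO2 rescue had 973 and 1097. All 6 libraries remained far above untransduced WT. The rescue clones averaged a log2 change of −1.83 from KO2 (SE 0.35, adjusted p = 0.000819) and of −2.34 from the mean of both KO clones. Taken alone, Rescue1 differed from KO2 by −3.30 (adjusted p = 1.86e-05) and Rescue2 by −0.35 (adjusted p = 0.575). Rescue1 lay below Rescue2 by 2.96 (log2 change −2.96, SE 0.40, adjusted p = 0.000647). The eGFP-transduced WT cells share the 10% serum but not the KO origin, single-colony origin or selection drug. Against them the change was −2.53 for both clones (adjusted p = 6.24e-05), −4.01 for Rescue1 alone and −1.05 for Rescue2 alone (adjusted p = 0.0726). The line labelled KO2 rescue was lower than KO2 by a log2 change of −1.39 (adjusted p = 0.0401). That call did not hold with either KO2 library or either labelled KO2 rescue library left out (−1.47 to −1.30), or with the replicate block (adjusted p = 0.0511). Ordered by mean, IGF2 ran SOX2, KO1, OCT2, eGFP, PRRX1, KO2, Rescue2, labelled KO2 rescue, Rescue1, TGF-β and WT. Neighbours from SOX2 to KO1, OCT2 to eGFP, eGFP to PRRX1, and TGF-β to WT overlapped, and the others did not.

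**Figure D1:**
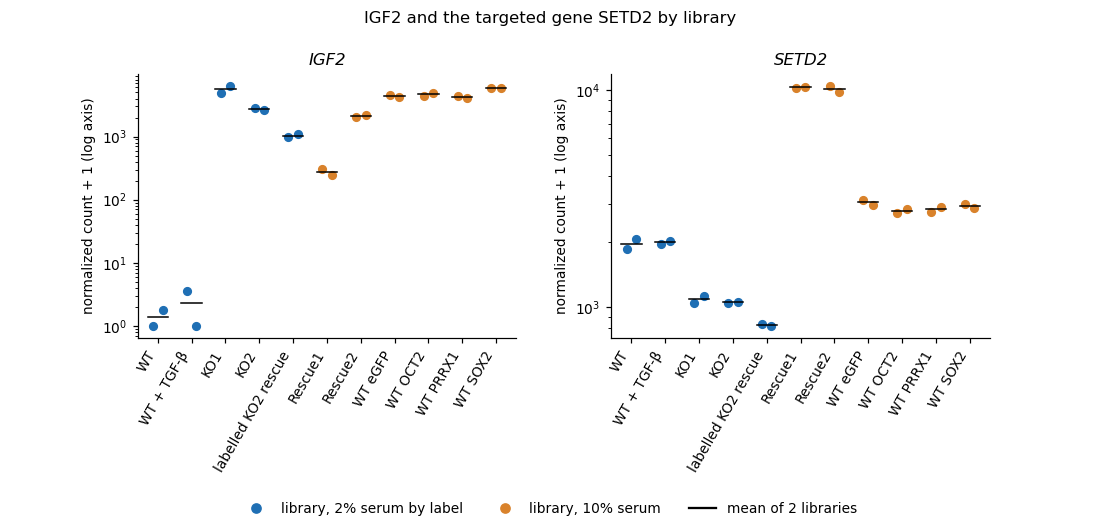
Normalized counts plus 1 of IGF2 (left) and SETD2 (right) on log axes for the 2 libraries of each of 11 groups, with bars at the group means and colour for serum. IGF2 sits at 0 to 2.58 counts in WT and TGF-β-treated WT and at 241 to 6332 in all other libraries, while SETD2 is highest in Rescue1 and Rescue2.

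The signaling receptor IGF1R (ENSG00000140443, chr15:98648539-98964530, plus strand) did not change past the test with SETD2 loss or TGF-β. The WT libraries had 1477 and 1962 normalized counts, the TGF-β libraries 2052 and 1780, KO1 1707 and 1917, and KO2 1789 and 1728. These 4 groups overlapped. TGF-β changed it from WT by 0.17 on the log2 scale, KO1 by 0.09 and KO2 by 0.05, with an SE of 0.17 each and adjusted p of 0.616 to 0.89. The rescue clones differed from each other: Rescue1 had 1669 and 2302, and Rescue2 had 1025 and 768, the lowest libraries of the series (log2 change 1.14, SE 0.17, adjusted p = 0.00205). The change was 0.91 without Rescue1 replicate 2 and 0.94 without Rescue2 replicate 2, under the fold threshold of 2.

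IGF2R (ENSG00000197081, chr6:159969082-160113507, plus strand) was higher in both KO clones than in WT. WT had 10212 and 9951 normalized counts, TGF-β-treated WT 16326 and 14901, KO1 23957 and 26166, and KO2 19422 and 18183. The 4 groups did not overlap and ran in the order WT, TGF-β, KO2, KO1. IGF2R in KO1 exceeded WT by 1.31 on the log2 scale (SE 0.07, adjusted p = 2.55e-09) and in KO2 by 0.90 (adjusted p = 2.92e-07), the latter under the fold threshold. The KO1 change was 0.93 with quantile normalization and 0.90 with every library at the same total, a scaling that moved the median of all genes by −0.40 in that comparison. TGF-β gave 0.63 (adjusted p = 3.17e-05), and the mean of the KO clones exceeded TGF-β by 0.48 (adjusted p = 3.07e-05). The rescue libraries, at 8964 to 10297, overlapped WT and lay below KO2 by a log2 change of −0.94 (SE 0.06, adjusted p = 3.75e-08). Serum, transduction and selection differ there too, and their part was not tested. Against the mean of both KO clones the change was −1.15, past the fold threshold. Against KO2, each rescue clone alone gave nearly the same value, −0.97 for Rescue1 and −0.91 for Rescue2. The line labelled KO2 rescue, at 17866 and 18138, differed from KO2 by −0.06 (adjusted p = 0.725). Transduced WT libraries ranged from 9061 to 12323, and the eGFP libraries differed from WT by 0.23 (adjusted p = 0.0335). Summed fibroblast markers were at 223505 and 236651 in KO1, 100073 and 103687 in KO2, 46403 and 47814 with TGF-β, and 830 to 1536 in the rescue clones, in the same order as IGF2R. Within the marker list, DCN and COL1A1 reached by far the highest values. The order differed for the line labelled KO2 rescue, whose marker sums of 41519 and 39189 lay below TGF-β while its IGF2R lay above. The WT sums, 12452 and 846, differed widely while IGF2R was nearly equal. Their part in the result was not tested. Per kb of the canonical transcript, IGF2R was above IGF1R in every group, for example 717 against 140.5 in WT and 1782 against 148 in KO1.

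Among the binding proteins, IGFBP3 and IGFBP7 together held 98.6% to 99.9% of the summed counts of IGFBP2, IGFBP3, IGFBP5, IGFBP6 and IGFBP7 in every library. IGFBP1 and IGFBP4 are not part of that sum. IGFBP3 (ENSG00000146674, chr7:45912245-45921874, minus strand) encodes the main IGF carrier of serum and is a known target of TGF-β. It was at 27993 and 16517 normalized counts in WT and at 48633 and 51232 with TGF-β. The treated libraries were both above WT (log2 change 1.21, SE 0.16, adjusted p = 8.46e-05). The change was 0.83 without WT replicate 2, 0.86 with quantile normalization and 0.98 with the same total per library, under the fold threshold. With only the compared libraries fitted it did not pass (limma adjusted p = 0.168).

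The KO clones differed from each other in IGFBP3. KO1 had 26708 and 26220, within the range of WT (log2 change 0.30, adjusted p = 0.154). KO2 had 11120 and 9410, below both WT libraries (−1.07, SE 0.16, adjusted p = 0.000107). KO1 exceeded KO2 by 1.37 (adjusted p = 3.74e-05). The KO2 change from WT was −0.69 without WT replicate 1 and −0.95 without KO2 replicate 2, under the fold threshold. With only the compared libraries fitted, the KO2 change from WT did not pass (limma adjusted p = 0.108). The difference between KO1 and KO2 did not pass in that setting either (limma adjusted p = 0.0576).

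IGFBP3 was lowest in lines derived from KO cells. The libraries labelled KO2 rescue had 1736 and 1907 normalized counts, Rescue1 953 and 990, and Rescue2 906 and 871. The rescue clones were 11-fold below KO2 (log2 change −3.46, SE 0.14, adjusted p = 1.16e-10, and −4.15 against the mean of both KO clones). They were 29.4-fold below eGFP-transduced WT in the same serum (−4.88, adjusted p = 4.72e-12). KO origin, single-colony origin and selection drug differ there too, and their part was not tested. The labelled KO2 rescue was 5.62-fold below KO2 (−2.49, adjusted p = 8.06e-08). Transduced WT libraries had 22764 to 27851, and the log2 changes of SOX2, OCT2 and PRRX1 from eGFP were −0.25, −0.23 and −0.20, none past the test (adjusted p = 0.865 to 1).

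IGFBP7 (ENSG00000163453, chr4:57030773-57110385, minus strand) rose with TGF-β, while its changes in the KO clones did not pass the test. WT libraries had 36986 and 23807, TGF-β libraries 60250 and 60709, KO1 29594 and 26265, and KO2 28107 and 28082. The TGF-β change was 1.03 (SE 0.13, adjusted p = 5.95e-05), and 0.71 without WT replicate 2. It was 0.72 with quantile normalization and 0.79 with the same total per library, under the fold threshold. With only the compared libraries fitted it did not pass (limma adjusted p = 0.172). The KO changes were −0.09 and −0.08 (adjusted p = 0.627 and 0.715), with libraries inside the WT range. Rescue1, at 15081 and 14203, and Rescue2, at 11886 and 12348, lay below every other library. Their mean change was −1.08 from KO2 (adjusted p = 2.95e-06), −1.07 from the mean of both KO clones and −0.94 from eGFP-transduced WT (adjusted p = 1.61e-05). The change from KO2 was −0.94 for Rescue1 alone, under the fold threshold, and −1.21 for Rescue2 alone. The line labelled KO2 rescue had 24052 and 24832 (−0.20 from KO2, adjusted p = 0.423).

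IGFBP3 and IGFBP7 in the WT libraries stood 1 above the other in the same order, replicate 1 higher. So did the fibroblast markers given above, and their part in these values was not tested.

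Per kb of transcript, the mix of these same binding proteins, without IGFBP1 and IGFBP4, shifted between groups. IGFBP3 made up 27.0% to 37.1% of the summed IGFBP level per kb in WT, TGF-β, KO1 and transduced WT libraries. It made up 15.3% and 17.6% in KO2 and 3.27% to 3.99% in the rescue clones and the line labelled KO2 rescue. The summed level per kb was 60937 and 62198 with TGF-β and 8840 to 11154 in the rescue clones, against 23404 and 36802 in WT. IGFBP7 was therefore the larger component in all 22 libraries.

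**Figure D2:**
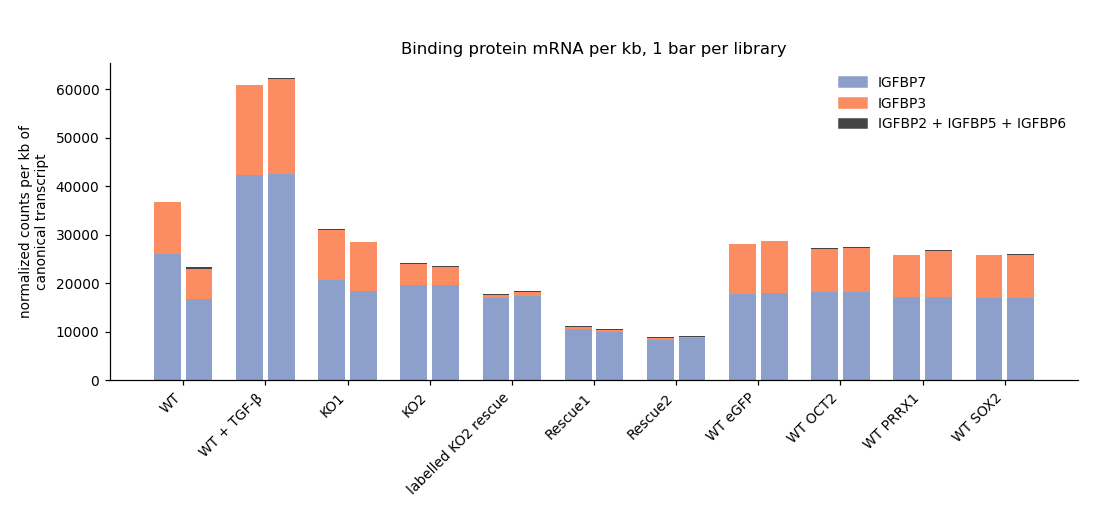
Normalized counts per kb of canonical transcript for IGFBP7, IGFBP3 and the sum of IGFBP2, IGFBP5 and IGFBP6, stacked in 1 bar per library and grouped by condition. The TGF-β bars are highest, at 60937 and 62198, and the IGFBP3 segment nearly vanishes in the line labelled KO2 rescue, Rescue1 and Rescue2.

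IGFBP6 (ENSG00000167779, chr12:53097436-53102345, plus strand), a binding protein that prefers IGF2 over IGF1, was a low and variable gene. WT libraries had 159 and 364 normalized counts, TGF-β libraries 86.2 and 25.8, KO1 132 and 113, and KO2 195 and 208. TGF-β-treated libraries lay below WT (log2 change −2.32, SE 0.56, adjusted p = 0.00929) and below both KO clones (KO mean against TGF-β 1.71, adjusted p = 0.0122). The KO changes from WT did not pass, at −0.97 (adjusted p = 0.189) and −0.26 (adjusted p = 0.796). The eGFP libraries, at 66.6 and 50.2, were also below WT (−2.04, adjusted p = 0.0139), and OCT2 libraries, at 167 and 214, differed from eGFP by 1.69 without passing (adjusted p = 0.513). The TGF-β call was lost without WT replicate 2 (−1.73) or TGF-β replicate 2 (−1.47), the eGFP call without WT replicate 2 (−1.44) or eGFP replicate 2, and the KO against TGF-β call without TGF-β replicate 2 (0.86).

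IGFBP5 (ENSG00000115461, chr2:216672105-216695549, minus strand), a matrix-bound binding protein, was detected mainly after TGF-β. The treated libraries had 58.3 and 50.2 normalized counts and WT 7.3 and 2.79. KO1, KO2, eGFP, OCT2 and PRRX1 libraries were all at 0. The other libraries were at 0 to 13.3. TGF-β-treated cells were at least 18.1-fold higher than KO1 and at least 15.2-fold higher than KO2, taken against a floor of 3 counts per library. IGFBP5 reached the filter of 10 normalized counts only in both TGF-β libraries and 1 Rescue2 library, so it was tested only through the group where it was high. Its differences from TGF-β are therefore given as a description, without a test. DIRC3-AS1 overlaps the gene on the other strand, and counting by strand is not given in the sources used here. The ratio of TGF-β to WT was 10.8 (95% counting interval on an estimated 11 WT reads, 6.22 to 22.3).

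IGFBP2 (ENSG00000115457, chr2:216632828-216664436, plus strand) was at 1.1 to 48.2 normalized counts. Both SOX2 libraries were highest, at 47.6 and 48.2, against 2.46 and 2.89 in eGFP. The log2 change of 3.73 (SE 1.22) did not pass (limma adjusted p = 0.541). Replicates of WT (2.23 and 21.4), Rescue1 (37 and 3.53) and PRRX1 (1.72 and 28.3) differed widely, and no comparison passed.

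**Figure D3:**
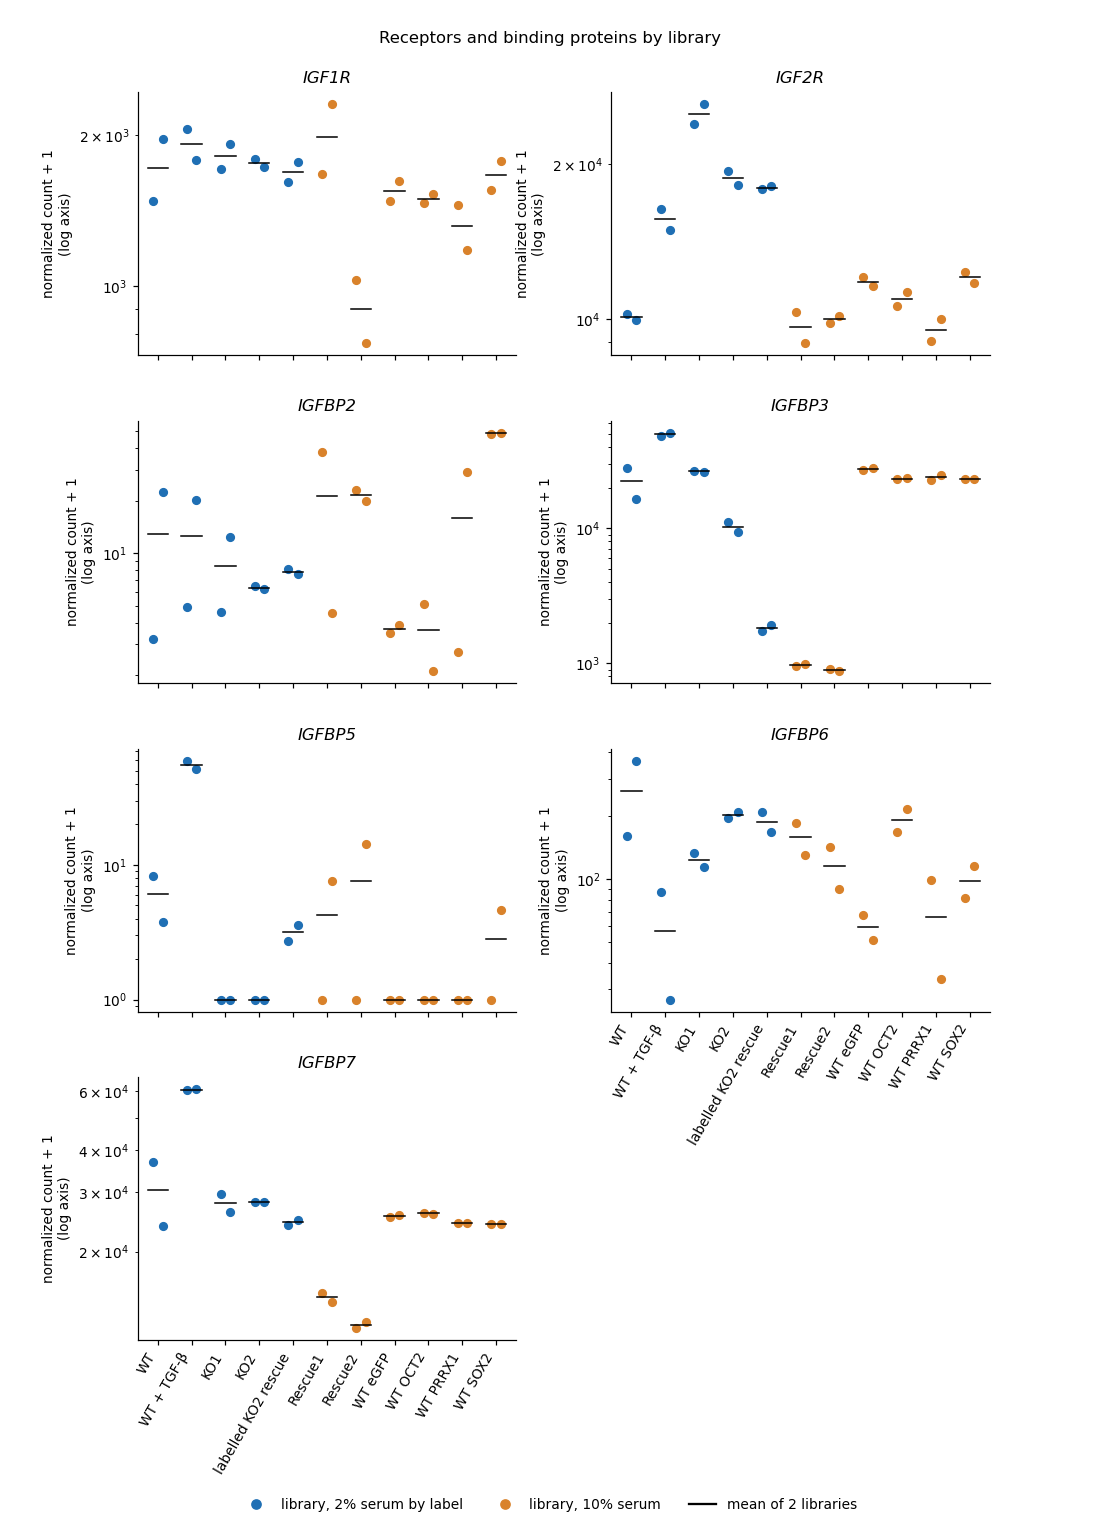
Normalized counts plus 1 (log axes with a scale of their own per gene) of the 2 receptors and 5 binding proteins in the 2 libraries of each group, with bars at group means and colour for serum. IGF2R is highest in KO1, IGFBP3 is lowest in the 4 rescue libraries, IGFBP5 and IGFBP7 are highest with TGF-β, and IGF1R is lowest in Rescue2.

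Counted over the 8 tested members, TGF-β called 2 higher and 1 lower (adjusted p under 0.05 and over 2-fold), where 7.84% of all tested genes were called in either direction. KO1 called 2 higher against WT (all genes 25%), and KO2 called 1 higher and 1 lower (16.3%). IGF2 was the member called in both clones. The comparisons of TGF-β, KO1, KO2 and eGFP with WT share the WT libraries. Against TGF-β, the KO mean called 2 higher and 2 lower of the 7 members other than IGFBP5 (all genes 20.2%). IGFBP5 had to differ once the TGF-β libraries took it past the filter, so it is not counted there. KO1 against KO2 called 1 (6.97%), the rescue clones called 3 lower against KO2 (17.5%) and 2 lower against eGFP (13.1%), and the labelled KO2 rescue called 2 lower against KO2 (4.17%). The clones Rescue1 and Rescue2 differed in 2 members (0.994%), and eGFP called 1 higher and 1 lower against WT (12.7%). By limma, 0 members were called for SOX2, OCT2 or PRRX1 against eGFP in any setting run, with 1 member each at an unadjusted p under 0.05, where 0.0206%, 0.0343% and 0.0411% of all genes were called. Without IGFBP5, the median log2 change of the other 7 was 0.50 with TGF-β, 0.09 in KO1, −0.08 in KO2 and −0.94 for rescue against KO2, against medians of all tested genes of 0.00, 0.00, 0.00 and −0.03.

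**Figure D4:**
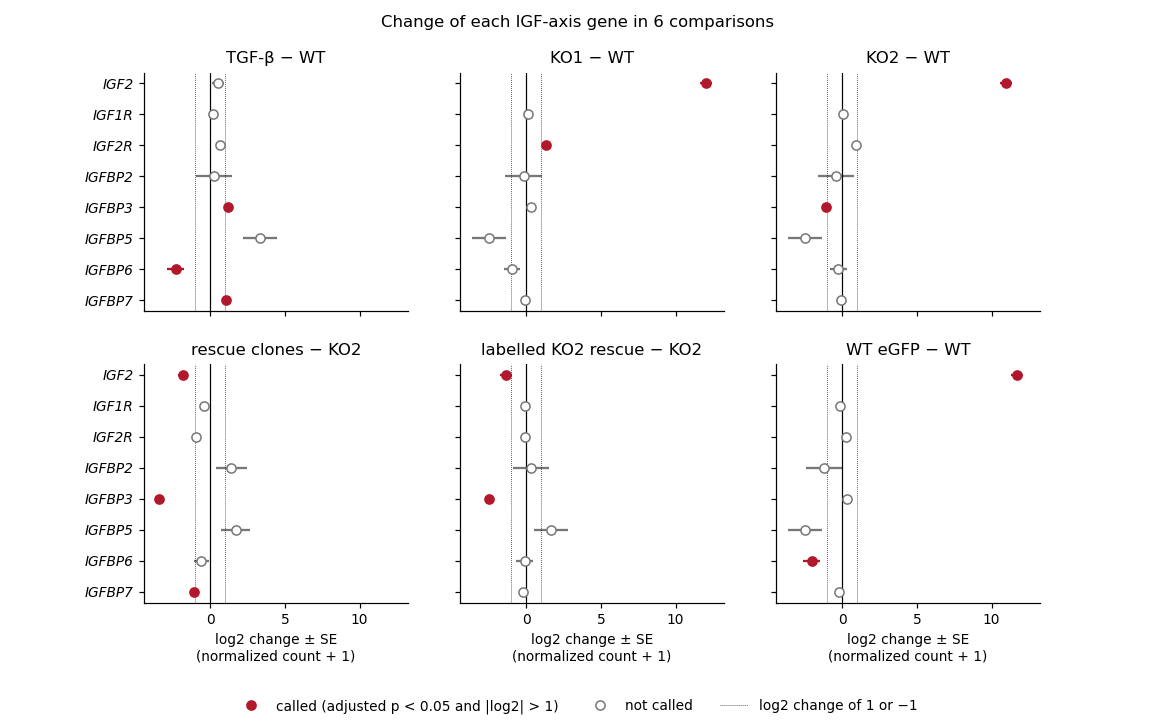
Log2 change of normalized count plus 1 with its SE for the 8 members in 6 comparisons, with filled red points for called members (more than 2-fold, adjusted p under 0.05). IGF2 stands near 11 to 12 in KO1, KO2 and eGFP-transduced WT against WT, and IGFBP3 is the lowest point in both comparisons with KO2.

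Around these members, 54 genes of the IGF pathway were listed by role, of which 41 were tested. KO1 called 7 higher and 2 lower against WT, or 22% (all genes 25%), and KO2 called 7 higher and 1 lower, or 19.5% (all genes 16.3%). TGF-β called 4 higher and 0 lower, or 9.76% (all genes 7.84%), and eGFP called 6 higher and 0 lower, or 14.6% (all genes 12.7%). The KO mean against TGF-β called 10, or 24.4% (all genes 20.2%), and rescue against eGFP called 7, or 17.1% (all genes 13.1%). KO1 against KO2 called 6, or 14.6%, where 6.97% of all genes were called, and rescue against KO2 called 3, or 7.32%, where 17.5% were. The labelled KO2 rescue called 2 against KO2, or 4.88% (all genes 4.17%). None were called by limma in Rescue1 against Rescue2 (all genes 0.994%) or for SOX2, OCT2 or PRRX1 against eGFP (0.0206%, 0.0343% and 0.0411%). Most of these shares lay near those of all genes.

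Regulators of IGF2 RNA and genes that act on binding proteins held several of the largest changes. HMGA2, a chromatin protein known to promote IGF2 and IGF2BP2 expression, was at 998 and 524 normalized counts in WT, 5374 and 6451 in KO1, 2493 and 2634 in KO2, and 1791 and 1832 with TGF-β. Its log2 changes from WT were 3.02 in KO1, 1.82 in KO2, 1.32 with TGF-β and 1.32 with eGFP, and KO1 exceeded KO2 by 1.20 (all adjusted p at most 0.00124). IGF2BP2 went the other way, by −0.92 in KO1, −0.71 in KO2 and −0.78 with TGF-β, under the fold threshold. With eGFP it changed by 0.29 without passing. PLAGL1, another listed regulator, was called lower in KO1 (−1.38). Any part of HMGA2 in the IGF2 or IGF2BP2 values was not tested. IGF2BP3, an RNA-binding protein of IGF2 mRNA, changed by 1.23 in KO2 (adjusted p = 0.00352) and 1.17 with TGF-β (adjusted p = 0.00886) from WT, by 1.42 with eGFP (adjusted p = 0.00152) and −1.17 in KO1 against KO2 (adjusted p = 0.0102).

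STC2, an inhibitor of the pappalysin proteases that cut IGFBP4 and IGFBP5, was at 31546 and 32604 in KO1 against 1103 and 1873 in WT (log2 change 4.48, adjusted p = 1.62e-10), and KO1 exceeded KO2 by 2.87. STC2 also rose in KO2 from WT, by 1.61 (adjusted p = 1.87e-05), and was higher in KO than with TGF-β by 3.17. HTRA1, a secreted protease that cuts IGF binding proteins, was at 2375 and 2454 in KO1 and 3067 and 3415 in KO2 against 601 and 301 in WT, with log2 changes of 2.5 and 2.92 of 1.01 with TGF-β (adjusted p = 0.00943) and of 1.06 with eGFP (adjusted p = 0.00448). HTRA1 was also higher in KO than with TGF-β (1.71) and in rescue than in eGFP libraries (1.17). ADAM12, a protease reported to cut IGFBP3 and IGFBP5, rose with TGF-β to 15305 and 14570 from 4781 and 2283 (log2 change 2.18, adjusted p = 4.63e-06). ADAM12 also rose from WT in KO1 (1.07, adjusted p = 0.000754) and KO2 (1.09, adjusted p = 0.000917), and was lower in KO than with TGF-β (−1.10, adjusted p = 0.000197). ADAM28, a related protease, changed by 5.44 in KO1, 3.89 in KO2 and 2.76 with eGFP from 3.99 and 1.37 in WT, and by −2.86 in rescue against KO2. The fitted ADAM28, IGFBP1 and STC1 values depend on the added count of 1, because one side of each comparison was near 0. STC1 (−4.47) and IGFBP1 (−4.70) were lower in rescue than in eGFP libraries, and IGFBP1 was higher in eGFP libraries than in WT, at 24.3 and 25.9 against 2.26 and 0.

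Among receptor adaptors, SHC1 was higher in KO1 than in WT (log2 change 1.60, adjusted p = 2.1e-10). GRB14, which inhibits the insulin receptor kinase, was at 1587 and 1530 in KO2, 101 and 102 in Rescue1 and 154 and 156 in Rescue2 (log2 change −3.62, adjusted p = 4.86e-10). It was also lower in the labelled KO2 rescue than in KO2 (−1.61) and in rescue than in eGFP libraries (−2.63), and higher in KO2 than in WT (1.66). GRB10, a related adaptor, was lower in KO than with TGF-β (−1.38, adjusted p = 2.27e-09). GRB2, the adaptor that links receptors to RAS, had 31.1 and 98.4 in KO2 against 194 and 285 in WT (−2.06), and was higher than KO2 in the rescue clones (3.05), the labelled KO2 rescue (2.05) and KO1 (1.95). Of the PI3K-AKT genes, FOXO3 changed by 1.61 in KO against TGF-β, 1.30 in eGFP against WT and −1.20 in rescue against eGFP (adjusted p = 0.00378 to 0.0412). PIK3R2 was at 0 in KO1 and at 46.1 and 4.96 in KO2, against 2.17 and 3.25 in WT. Its KO2 libraries differed widely, and its fitted KO1 values depend on the added count of 1.

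The genes whose 11 group means were most like those of each member were named by Pearson's r of log2(normalized count + 1), over 9885 or 9886 genes, as a description with groups that share treatments and clones. For IGF2 they were SDK1 (0.969), PPP4R2 (0.965) and RASSF5 (0.956). For IGF2R they were TRPT1 (0.972), EXOC7 and RXRB (0.963 each), and for IGF1R CDK5RAP1 (0.927), GPR173 (0.885) and ZFYVE1 (0.873). For IGFBP3 they were AGAP7P (0.974), CPT1C (0.967) and B9D1 (0.963), for IGFBP7 HSF4 (0.943), ARHGEF10L (0.935) and OTUD1 (0.931), and for IGFBP5 DHRS2 (0.972), DENND3 (0.964) and PLEKHG4B (0.963). The likeness was weaker for IGFBP6, with BLVRB (0.889), GLUL (0.88) and FPGT (0.876), and for IGFBP2, with GIPR (0.777), NDUFAF5 (0.735) and ENSG00000233076 (0.711).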

How the data were processed

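RNA-seq libraries (stranded mRNA protocol) of 22 RPTEC samples are quantified by the authors with Salmon (1.9.0) on Ensembl cDNA of GRCh38 and analysed with DESeq2 (1.26.0), versions per the submitters' processing notes. The authors deposited log2 values for 36859 genes whose form is that of variance-stabilized normalized counts, with 11.32, the value of a count of 0, as the lowest in every library. The planned test took linear normalized counts as its input, and the values are first converted back by inverting the transformation. Reads per library are approximated from the step between low values. Symbols and positions come from GENCODE on GRCh38 and match 33878 genes. Promoters come from RefSeq (7 of 9 members matched).

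limma (3.58.1, R 4.3.3) with a variance trend is fitted on log2(normalized count + 1) to all 22 libraries with a mean per group, for genes that reach 10 normalized counts in 2 or more libraries. A gene is called at a Benjamini-Hochberg adjusted p under 0.05 over the 14585 tested genes and an absolute log2 change over 1. On simulated data for KO1 against WT (14126 genes), 147 of 200 genes with a log2 change of 2 are recovered and 3 unchanged genes are called. Groups come from the sample labels, and the study's supplementary tables do not number the clones the same way throughout. Members and lists were chosen with earlier results of these data known. Pathway genes are named as the called genes with the largest absolute change, at most 5 per comparison, with IGF2BP2 and PLAGL1 added. Like genes are the 3 with the highest r among genes with a group mean of at least 100. Tools are Python 3.11.15, numpy 2.4.6, pandas 2.3.3, matplotlib 3.10.9 and, in R, data.table (1.17.8).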

Additional observations from a re-analysis of the deposited data

Results flagged for a closer look

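Groups under the same contrast differed by a test of the difference itself in 3 results. IGFBP3 differed between the SETD2 KO clones, with KO1 above KO2 by a log2 change of 1.37 (limma adjusted p = 3.74e-05), with no overlap between their libraries. IGF2 differed between the rescue clones by −2.96 (adjusted p = 0.000647), Rescue1 being lower in both libraries. IGF1R differed between the same clones by 1.14 (adjusted p = 0.00205), Rescue1 being higher in both libraries. No group had enough libraries to look for a single library far from the others.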

How the results depend on the processing

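IGFBP5 was tested only through the TGF-β libraries and is left out of this count. Of 23 other member changes called, 9 kept their call in every alternative run other than the test on the deposited log2 values. Low counts are compressed by construction in that test. Against WT the kept calls were IGF2 in KO1, KO2 and eGFP. In KO against TGF-β they were IGF2, IGFBP3 and IGFBP7. The rest were IGFBP3 in rescue against KO2 and eGFP and in the labelled KO2 rescue against KO2. A filter on a mean of 50 normalized counts removes IGFBP5 and IGFBP2, which then have no value. Members called were 1 for TGF-β and 1 for KO1 with quantile normalization or with the same total per library. On the deposited log2 values they were 1 for TGF-β, 1 for KO2, 2 for KO against TGF-β, 1 for rescue against KO2, 0 for Rescue1 against Rescue2, 1 for rescue against eGFP, 1 for the labelled KO2 rescue and 1 for eGFP against WT. With only the compared libraries fitted they were 0 for TGF-β, 1 for KO2, 0 for KO1 against KO2, 0 for Rescue1 against Rescue2 and 1 for eGFP. Against the mean of KO1 and KO2, 4 members were called for rescue. A pseudocount of 5 gave 2 for KO1 against KO2, and a pseudocount of 0.5 or no filter gave 1 for the labelled KO2 rescue. Replicates share only a number. Over 55 pairs of groups the correlation of same-numbered deviations was −0.175 to 0.113 (median −0.011), and the replicate block gave 1 for the labelled KO2 rescue and moved no other count by over 1.5 times. With 1 library left out (the lone library is assumed to vary like other groups) the counts were 0 to 3 for TGF-β, 1 to 2 for KO2, 1 to 2 for Rescue1 against Rescue2, 1 for the labelled KO2 rescue and 1 to 2 for eGFP. Alternatives chosen after seeing the data were fits without the libraries labelled KO2 rescue and each rescue clone alone, and the cause of changes was not tested.

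Turned signs were all among changes not called. With the same total per library, IGF1R changed by −0.07 with TGF-β, −0.32 in KO1, −0.18 in KO2, −0.14 in KO1 against KO2 and 0.01 in the labelled KO2 rescue, and IGFBP3 by −0.11 in KO1. With quantile normalization, IGF1R and IGFBP3 changed by −0.02 in KO1, IGF1R by −0.02 in KO1 against KO2 and IGFBP7 by 0.03 with PRRX1. With Rescue1 alone IGF1R changed by 0.16 from KO2 and 0.34 from eGFP. With 1 library left out, IGF1R ranged from −0.04 to 0.37 with TGF-β, −0.12 to 0.29 in KO1, −0.16 to 0.25 in KO2, −0.04 to 0.12 in KO1 against KO2, −0.13 to 0.01 in the labelled KO2 rescue, −0.35 to 0.06 in eGFP and −0.12 to 0.02 in OCT2. IGFBP2 ranged from −1.17 to 1.63 with TGF-β, −1.57 to 1.22 in KO1, −1.82 to 0.97 in KO2, −0.46 to 0.97 in KO1 against KO2, −1.54 to 0.48 in KO against TGF-β, −2.24 to 0.83 in Rescue1 against Rescue2, −2.61 to 0.19 in eGFP, −0.81 to 0.48 in OCT2 and −0.43 to 3.00 in PRRX1. IGFBP7 ranged from −0.41 to 0.23 in KO1, −0.40 to 0.24 in KO2, −0.10 to 0.08 in KO1 against KO2 and −0.53 to 0.10 in eGFP. IGFBP6 ranged from −0.85 to 0.34 in KO2, −0.28 to 0.04 in the labelled KO2 rescue and −0.81 to 0.75 in PRRX1. IGFBP3 ranged from −0.08 to 0.68 in KO1 and −0.03 to 0.73 in eGFP, IGF2R from −0.15 to 0.05 in Rescue1 against Rescue2 and −0.01 to 0.06 in SOX2, IGFBP5 from −2.38 to 1.46 in Rescue1 against Rescue2 and IGF2 from −0.42 to 1.42 with TGF-β. Depth limits IGF2 in WT and with TGF-β, IGFBP2 and IGFBP5, which rest on few reads.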
